A study of Mus musculus with 24 samples.

Results

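The Gimap genes encode the GTPases of immunity-associated proteins, a family of small GTP-binding proteins of lymphocytes. They were followed here as 8 genes (Gimap1, Gimap3, Gimap4, Gimap5, Gimap6, Gimap7, Gimap8 and Gimap9) of 19938 genes measured, each represented by the single probe set (the group of array probes that reads 1 gene) whose annotation named that gene and no other. Messenger RNA was measured on 24 arrays of conventional dendritic cells (cDC), the antigen-presenting cells that prime T cells, sorted from spleens of female mice aged 8 to 10 weeks. All groups shared sex, age range, organ and a CD11c+ gate, and differed in subset, strain and injection. CD8+ cDC were taken from NOD mice (NOD/ShiLt, a strain that develops autoimmune diabetes) injected with CpG-A, NOD mice injected with PBS, B6 mice (C57BL/6) injected with CpG-A and B6 mice injected with PBS, and CD11b+ cDC from the same 4 kinds of mice, with 3 arrays in each of the 8 groups and 12 h between injection and collection. CpG-A is an oligonucleotide read by Toll-like receptor 9 and known for inducing type I interferon. The labels do not say whether the 3 arrays of a group came from separate mice or pools, so the p-values measure the spread between these arrays, which may be technical.

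Gimap proteins share a GTP-binding domain related to that of septins and sit on membranes of the endoplasmic reticulum, mitochondria and lysosomes. They are known mainly from T, B and NK cells, where loss of Gimap1 or Gimap5 shortens the life of peripheral lymphocytes, and several members have been reported to bind proteins of the BCL-2 family or the ATG8 family of autophagy. In mice the genes lie side by side on chromosome 6. In the RefSeq annotation of GRCm38.p6 the cluster spans chr6:48647186-48770851, 124 kb, in the order Gimap8, Gimap9, Gimap4, Gimap6, Gimap7, Gimap1, Gimap5 and Gimap3. Another 2 annotated genes lie inside the cluster and were not measured here. Gimap3 and Gimap5 are close copies of each other, so probes of one may also read the other, which was not tested.

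The promoters of Gimap4, Gimap7 and Gimap3, the members with the largest differences after CpG below, are shown because the cluster's genes moved together. Each is the RefSeq window of 300 bases, from 250 before to 50 after the annotated start (GRCm38.p6), at chr6:48684328-48684627 on the plus strand for Gimap4, chr6:48718371-48718670 on the plus strand for Gimap7 and chr6:48770802-48771101 on the minus strand for Gimap3. Capitals mark motif matches found on either strand.
Gimap4: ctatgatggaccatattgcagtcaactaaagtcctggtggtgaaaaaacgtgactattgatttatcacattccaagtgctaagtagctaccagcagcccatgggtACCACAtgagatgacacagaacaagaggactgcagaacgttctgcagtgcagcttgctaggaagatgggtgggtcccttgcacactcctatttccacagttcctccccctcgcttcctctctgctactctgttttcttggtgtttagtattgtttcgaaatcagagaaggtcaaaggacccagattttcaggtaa
Gimap7: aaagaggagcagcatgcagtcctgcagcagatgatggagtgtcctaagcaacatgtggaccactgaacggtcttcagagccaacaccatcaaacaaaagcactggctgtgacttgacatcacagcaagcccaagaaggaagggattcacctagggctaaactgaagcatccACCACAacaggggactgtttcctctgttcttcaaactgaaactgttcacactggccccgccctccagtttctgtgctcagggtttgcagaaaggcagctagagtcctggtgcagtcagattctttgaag
Gimap3: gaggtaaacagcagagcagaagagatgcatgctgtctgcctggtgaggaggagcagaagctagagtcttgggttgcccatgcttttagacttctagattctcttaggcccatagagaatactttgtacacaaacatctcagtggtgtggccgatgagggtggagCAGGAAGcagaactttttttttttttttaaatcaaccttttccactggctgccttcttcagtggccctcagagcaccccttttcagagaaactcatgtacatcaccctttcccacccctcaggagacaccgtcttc
The RUNX motif TGTGGT (reading ACCACA on the other strand) stood in the windows of Gimap1, Gimap4 and Gimap7, 3 of the 8 members, and in 16.8% of 32851 mouse promoter windows of this length. The ETS motif CAGGAAG stood in those of Gimap3, Gimap5 and Gimap9 (13.3% of all windows), and the T-box motif GGTGTGA in Gimap8 (4.0%). The core of the interferon-stimulated response element, GAAANNGAA (8.6% of all windows), and the kappa-B motif GGGANTTCC (1.7%) stood in none of the 8, which says only that these letters are not in these windows. All motifs were searched on both strands, and a match is a description and not a binding site.

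Levels below are deposited log2 expression values, in which 1 unit is a doubling of the probe set's signal. A level is set against those of other probe sets only by the array median or by its rank, as a description of signal. Differences are log2 differences ± standard error from limma, fitted over all 8 groups at once with Benjamini-Hochberg adjustment over all genes tested, and "rose" and "fell" are used only where the adjusted p was under 0.05. A gene was tested where 3 or more of the 24 arrays had it above the median of that array, which held for 11365 genes. Gimap1, Gimap4, Gimap6, Gimap7, Gimap8 and Gimap9 passed that filter also without the arrays of CpG-injected B6 CD11b+ cDC. Gimap3 passed through those arrays, and Gimap5 did not pass, so counts are also given from a fit with no filter over all 19938 genes, which holds all 8 members. Array medians ran from 5.75 to 5.85. The sorted subsets matched their labels: under PBS the mean of 8 CD8+ cDC markers lay between 10.43 and 10.66 on CD8+ arrays, against 7.14 to 7.74 on CD11b+ arrays, and the mean of 7 CD11b+ cDC markers between 6.51 and 6.95 against 8.87 to 8.99. Ifit1, an interferon-induced gene, rose after CpG in all 4 cell populations, by log2 differences of 3.87 to 5.74.

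One group stood apart for the whole family. In CpG-injected B6 CD11b+ cDC each of the 8 Gimap genes was higher on all 3 arrays than on any of the other 21 arrays, as were 1.34% of all 19938 genes. Compared with PBS-injected B6 CD11b+ cDC, all 8 rose in the fit with no filter, by a median log2 difference of 2.17, where 21.5% of all genes passed in either direction, 9.24% rose and the median of all genes was 0.01. In the fit with the filter 7 of 7 tested members rose, by a median of 2.24, where 38.6% of all genes passed, 15.7% rose and the median of all genes was -0.07. No member passed in either direction after CpG in the other 3 populations. In bulk samples, fewer cells of a type and less RNA per cell cannot be told apart, and the same holds for more of either.

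**Figure D1:**
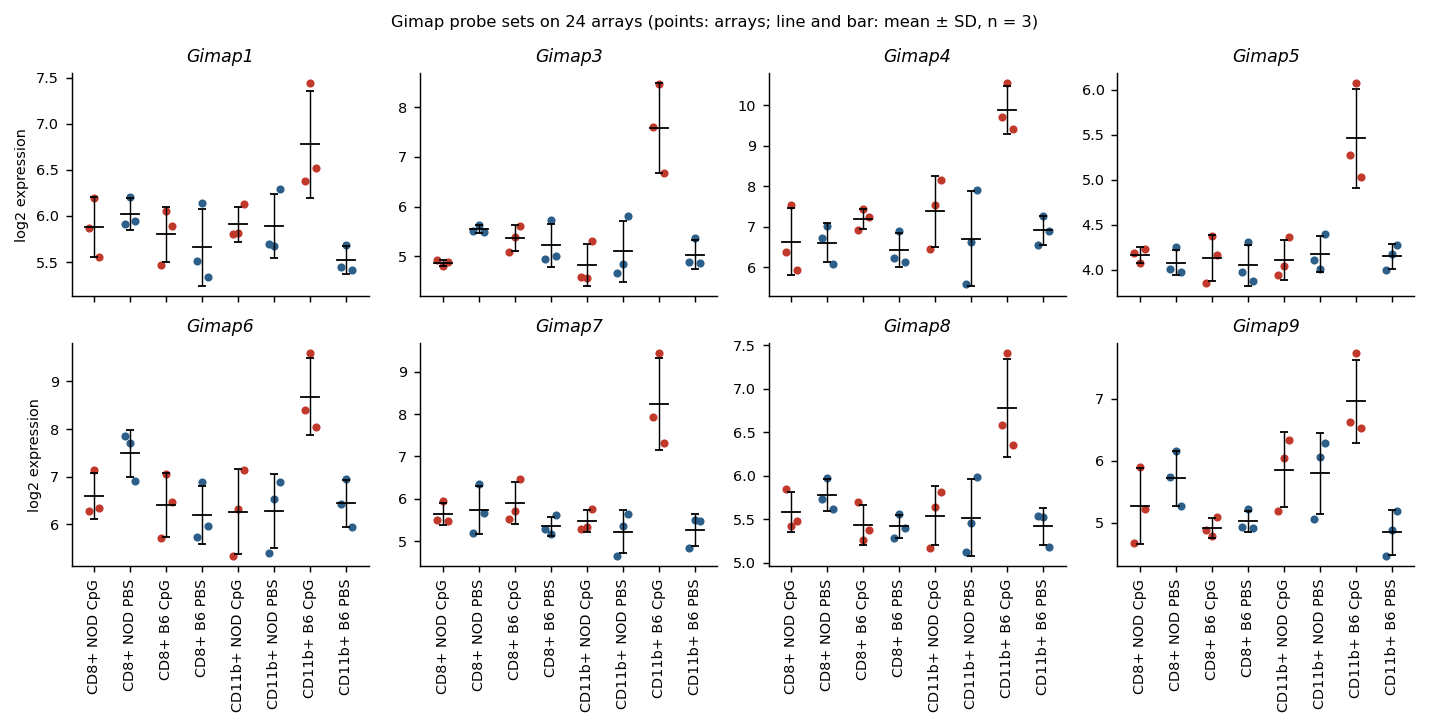
Log2 expression (vertical axis, a separate scale for each gene) of the 8 Gimap probe sets in the 8 groups (horizontal axis); red points are CpG and blue points PBS arrays, with the mean and SD over 3 arrays in black. In every panel the 3 arrays of CpG-injected B6 CD11b+ cDC lie above all other 21 arrays, for Gimap4 between 9.41 and 10.54 against at most 8.16.

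Gimap4, whose product is known for speeding the death of T cells once apoptosis has begun, had levels of 9.70, 10.54 and 9.41 in CpG-injected B6 CD11b+ cDC, against 6.56, 7.27 and 6.89 in PBS-injected B6 CD11b+ cDC. The groups did not overlap, and the log2 difference was 2.97 ± 0.48, a 7.86-fold rise (adjusted p = 2.66e-05). Gimap7, a GTPase known in human cells for stimulating GTP hydrolysis by other members of the family through dimers, had levels of 7.94, 9.44 and 7.33 in CpG-injected B6 CD11b+ cDC, against 4.83, 5.50 and 5.47 in the PBS group. It rose 7.84-fold (2.97 ± 0.38, adjusted p = 1.44e-06), again without overlap. By signed size of the difference Gimap4 and Gimap7 stood 65th and 67th among the 11365 tested genes.

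Gimap3, an outer-membrane protein of mitochondria and the endoplasmic reticulum that in mice affects the segregation of mitochondrial DNA, had levels of 7.61, 8.47 and 6.67 in CpG-injected B6 CD11b+ cDC, against 4.88, 5.36 and 4.86 in the PBS group. The log2 difference was 2.55 ± 0.33, a 5.87-fold rise (adjusted p = 1.49e-06). Its close copy Gimap5, a lysosomal protein needed for lymphocyte survival, had a 24-array mean higher than that of only 18.1% of genes. Its levels were 5.27, 6.07 and 5.03 in CpG-injected B6 CD11b+ cDC, against 4.0, 4.17 and 4.28 in the PBS group. With no filter it rose by 1.30 ± 0.19 (adjusted p = 9.57e-06). A single array of the 24 was above its array's median for Gimap5, so this rise took place in the low part of the scale. In PBS-injected B6 CD11b+ cDC all members but Gimap4 and Gimap6 lay below the array median on all 3 arrays, so their folds start from low signal.

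Gimap6, reported to bind an ATG8 protein and to be drawn to autophagosomes, had levels of 8.41, 9.59 and 8.04 in CpG-injected B6 CD11b+ cDC, against 6.42, 6.95 and 5.95 in the PBS group, a rise of 2.24 ± 0.47 (adjusted p = 0.000556). Gimap9 had 6.62, 7.73 and 6.53 in the CpG group, against 4.47, 4.89 and 5.19 in the PBS group, a rise of 2.11 ± 0.35 (adjusted p = 4.49e-05). Both pairs of groups were separate. Gimap1, needed in mice for the survival of mature T and B cells, had 6.38, 7.44 and 6.52 in the CpG group, against 5.45, 5.69 and 5.41 in the PBS group. Gimap8, which is larger than the other members and carries several GTPase domains, had 6.58, 7.41 and 6.35 in the CpG group, against 5.54, 5.53 and 5.18 in the PBS group. These 2 rose least among the tested members, Gimap1 by 1.26 ± 0.25 (adjusted p = 0.000271) and Gimap8 by 1.36 ± 0.24 (adjusted p = 6.61e-05).

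The array labelled 2 of CpG-injected B6 CD11b+ cDC was the highest of the 24 for every member. Without it the 7 tested members still passed, with log2 differences between 0.93 for Gimap1 and 2.65 for Gimap4. The largest adjusted p was then 0.00676, for Gimap6.

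No member passed in the other 3 populations. After CpG in NOD CD8+ cDC limma called 0 of 7 tested members, with 0 at an unadjusted p under 0.05 and log2 differences between -0.89 (Gimap6) and 0.02 (Gimap4), while 40.3% of all genes passed. In B6 CD8+ cDC it called 0 of 7, with 0 at an unadjusted p under 0.05 and differences between -0.10 (Gimap9) and 0.78 (Gimap4), while 57.2% of all genes passed. In NOD CD11b+ cDC it called 0 of 7, with 0 at an unadjusted p under 0.05 and differences between -0.28 (Gimap3) and 0.68 (Gimap4), while 15.3% of all genes passed. The standard errors there ran as in B6 CD11b+ cDC, 0.48 for Gimap4 and 0.25 for Gimap1. Differences larger than 1 standard error could not be told from 0 either, such as 0.78 for Gimap4 and -0.89 for Gimap6 above. Gimap5, with no filter, differed by -0.06 ± 0.19 in NOD CD11b+ cDC, 0.08 ± 0.19 in NOD CD8+ cDC and 0.07 ± 0.19 in B6 CD8+ cDC.

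**Figure D2:**
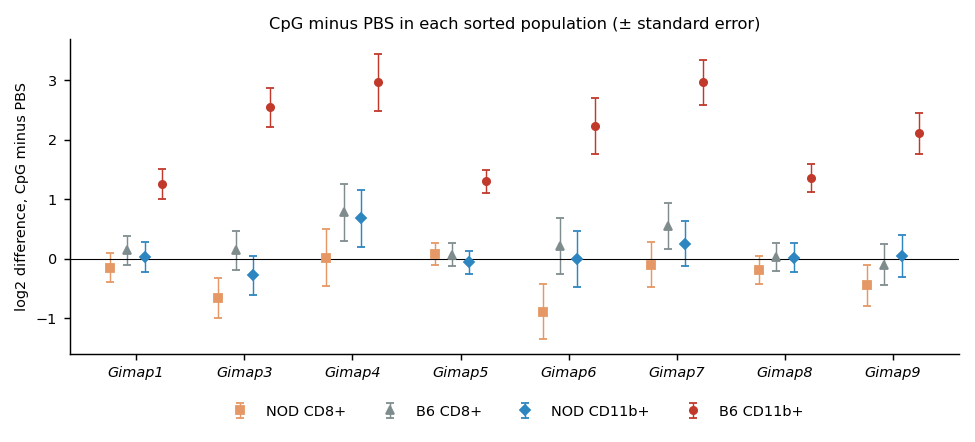
Log2 difference of CpG minus PBS (vertical axis) with its limma standard error for each Gimap gene (horizontal axis) in NOD CD8+ (squares), B6 CD8+ (triangles), NOD CD11b+ (diamonds) and B6 CD11b+ cDC (circles), with Gimap5 from the fit with no filter. The circles lie between 1.26 and 2.97, and all other points between -0.89 and 0.78.

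Other GTPases, those known to be induced by interferon, rose after CpG in every population sorted. In the list of 8 measured interferon-inducible GTPases, which defend cells against intracellular microbes, 7 members rose after CpG in NOD CD8+ cDC (median log2 difference 2.27), 8 in B6 CD8+ cDC (3.35), 8 in NOD CD11b+ cDC (3.05) and 8 in B6 CD11b+ cDC (3.48). Of the 11365 genes tested, 1705, 2382, 1089 and 1786 rose in these populations, in the same order. The largest rises in B6 CD11b+ cDC were those of Mx2 (4.26 ± 0.23), Iigp1 (4.15 ± 0.17), Gbp5 (3.92 ± 0.20) and Mx1 (3.5 ± 0.20).

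Between the strains, the members passed in CD11b+ cDC after CpG and in none of the other 3 strain comparisons. NOD CD11b+ cDC after CpG were lower than B6 CD11b+ cDC after CpG for 7 of 7 tested members (median -2.41; 22.9% of all genes passed and 9.12% were lower) and, with no filter, for 8 of 8 (12.6% passed and 5.27% were lower). Gimap4 had levels of 6.45, 7.54 and 8.16 in NOD CD11b+ cDC after CpG, against 9.70, 10.54 and 9.41 in B6 (-2.50 ± 0.48, adjusted p = 0.000447). Gimap7 had 5.29, 5.33 and 5.77 in NOD, against 7.94, 9.44 and 7.33 in B6 (-2.77 ± 0.38, adjusted p = 1.03e-05), and Gimap3 had 4.59, 4.57 and 5.31, against 7.61, 8.47 and 6.67 (-2.76 ± 0.33, adjusted p = 1.45e-06). The ranges of the strains were apart for each of these genes. The smallest differences were those of Gimap1 (-0.87 ± 0.25, adjusted p = 0.0125) and Gimap9 (-1.10 ± 0.35, adjusted p = 0.0259), and without the array labelled 2 of the B6 group both no longer passed, at -0.54 (adjusted p = 0.113) for Gimap1 and -0.72 (adjusted p = 0.169) for Gimap9. This comparison, the one between subsets under CpG in B6 and the CpG comparison in B6 CD11b+ cDC all rest on the same 3 arrays and are not independent of each other. Whether NOD sequence variants lie under the probes was not tested.

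Under PBS, in CD11b+ cDC, limma called 0 of 7 members between NOD and B6, with 1 at an unadjusted p under 0.05, and 5.55% of all genes passed. That member was Gimap9, at 5.06, 6.06 and 6.28 in NOD against 4.47, 4.89 and 5.19 in B6 (0.95 ± 0.35, adjusted p = 0.145), with overlapping groups. In CD8+ cDC under PBS it called 0 of 7, with 1 at an unadjusted p under 0.05, and 3.61% of all genes passed. Gimap6 was that member, at 7.86, 7.70 and 6.92 in NOD against 5.74, 6.89 and 5.97 in B6. Its lowest NOD array lay just above its highest B6 array. The difference was 1.29 ± 0.47 with an adjusted p of 0.183, and 0.0433 with the replicate number as a fixed block, where the numbers pair the arrays. With the number as a random block it was 0.0929 and did not pass. In CD8+ cDC after CpG it called 0 of 7, with 0 at an unadjusted p under 0.05 and differences between -0.57 (Gimap4) and 0.35 (Gimap9), and 19.9% of all genes passed.

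Some B cell markers were higher in NOD than in B6 CD8+ cDC under both injections. The mean of 7 B cell markers was 8.75, 8.84 and 7.59 in PBS-injected NOD CD8+ cDC, against 6.54, 7.45 and 6.40 in PBS-injected B6 CD8+ cDC. Of the 7, 4 were higher in NOD, with a median of 1.76 (3.61% of all genes passed). After CpG the mean was 6.95, 8.19 and 7.01 in NOD, against 5.74, 6.53 and 6.30 in B6. Then 3 of the 7 were higher, with a median of 1.13 (19.9% of all genes passed). Gimap6 differed by 1.29 ± 0.47 under PBS and by 0.18 ± 0.47 after CpG. The part of B cells in the level of Gimap6 was not tested. Within NOD CD11b+ cDC, B cell markers and the family lay in the same order over the arrays. B cell marker means on the arrays labelled 1, 2 and 3 were 6.42, 7.29 and 7.57 after CpG and 6.79, 7.55 and 7.86 after PBS. The family mean, taken after centring each member on its own 24-array mean, was -0.63, -0.18 and 0.28 after CpG and -0.81, -0.28 and 0.31 after PBS. CD11b+ cDC markers had this order in both groups, at 8.43, 8.53 and 8.59 after CpG and 8.87, 8.94 and 8.96 after PBS. NK cell markers (6.69, 6.83 and 6.96) and T cell markers (5.68, 5.86 and 6.05) had it after CpG. The ranges of these other lists were narrower than those of the B cell markers. The part of B cells in this order was not tested. Gimap4 spanned more in the PBS group than in any other, 5.58 to 7.92 (SD 1.17, n = 3).

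Between the subsets, members passed in B6 after CpG and in none of the other 3 comparisons. CD8+ cDC after CpG were lower than CD11b+ cDC after CpG in B6 for 7 of 7 tested members (median -2.22; 37% of all genes passed and 24.3% were lower), and for 8 of 8 with no filter (21.6% passed and 13.1% were lower). Gimap4 had 6.93, 7.43 and 7.24 in CD8+ cDC, against 9.70, 10.54 and 9.41 in CD11b+ cDC (-2.68 ± 0.48, adjusted p = 0.000116), and the subsets did not overlap. Gimap9 had 4.88, 4.79 and 5.10 in CD8+ cDC, against 6.62, 7.73 and 6.53 (-2.04 ± 0.35, adjusted p = 8.68e-05). Gimap1 differed least, by -0.98 ± 0.25 (adjusted p = 0.00339). In NOD after CpG limma called 0 of 7 between the subsets, with 0 at an unadjusted p under 0.05, while 38.2% of all genes passed. Under PBS it called 0 of 7 in B6, with 0 at an unadjusted p under 0.05, and 0 of 7 in NOD, with 1 at an unadjusted p under 0.05, where 21.6% of all genes passed in each strain. The one in NOD was again Gimap6, at 7.86, 7.70 and 6.92 in CD8+ cDC against 5.41, 6.54 and 6.90 in CD11b+ cDC, with the lowest CD8+ array just above the highest CD11b+ one (1.21 ± 0.47, adjusted p = 0.0713). With the replicate number as a block, its adjusted p was 0.0166 (fixed) and 0.0367 (random). Same-numbered arrays deviated together only weakly here (correlations 0.103 to 0.177), and the labels do not say what a number marks.

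The levels had the same leading group for every member and differed in what followed. Gimap6 averaged 8.68 ± 0.81 in CpG-injected B6 CD11b+ cDC and 7.49 ± 0.50 in PBS-injected NOD CD8+ cDC, and its other 6 groups lay between 6.20 ± 0.61 and 6.60 ± 0.48 (SD, n = 3 each). PBS-injected NOD CD8+ cDC came next also for Gimap1 (6.02 ± 0.17), Gimap3 (5.54 ± 0.08) and Gimap8 (5.78 ± 0.18). CpG-injected NOD CD11b+ cDC came next for Gimap4 (7.38 ± 0.87) and Gimap9 (5.86 ± 0.60), CpG-injected B6 CD8+ cDC for Gimap7 (5.90 ± 0.50) and PBS-injected NOD CD11b+ cDC for Gimap5 (4.17 ± 0.20). In each member's order of group means, the step between the first and the second group was the only one at which neighbouring groups did not overlap.

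The differences between these CpG responses were tested directly. The response of NOD minus that of B6 in CD11b+ cDC was negative for 5 of 7 tested members at an adjusted p under 0.05, where 4.34% of all genes passed and 1.95% were negative. Gimap3 (-2.83 ± 0.47, adjusted p = 0.000688) and Gimap7 (-2.73 ± 0.54, adjusted p = 0.00421) led, Gimap9, Gimap8 and Gimap1 also passed, and Gimap4 (-2.30 ± 0.68, adjusted p = 0.0537) and Gimap6 (-2.25 ± 0.66, adjusted p = 0.0546) did not. With no filter 5 of 8 passed (2.01% of all genes passed and 1.03% were negative): Gimap5 passed (-1.37 ± 0.27, adjusted p = 0.00538) and Gimap1 did not (adjusted p = 0.0581). The count rested on single arrays: it was 2 without the array labelled 2 of CpG-injected B6, 2 without the array labelled 1 of CpG-injected NOD, 2 without the array labelled 3 of PBS-injected NOD, and 3 without the array labelled 1 or 3 of PBS-injected B6 or the array labelled 2 of PBS-injected NOD. In CD8+ cDC 0 of 7 passed, with 0 at an unadjusted p under 0.05, and 3.97% of all genes did. The response of CD8+ minus that of CD11b+ cDC in B6 was negative for 7 of 7 (13.2% of all genes passed and 7.43% were negative), from -2.42 ± 0.54 for Gimap7 to -1.12 ± 0.35 for Gimap1. With no filter 7 of 8 passed (6.42% of all genes passed and 3.46% were negative), and Gimap6 did not (adjusted p = 0.0617). That count was 4 without the array labelled 2 of CpG-injected B6 CD11b+ cDC, 4 without the one labelled 1 or 3 of PBS-injected B6 CD11b+ cDC, and 4 without the one labelled 1 of CpG-injected or 2 of PBS-injected B6 CD8+ cDC. In NOD the same contrast called 0 of 7, with 0 at an unadjusted p under 0.05 (6.75% of all genes passed). The strain difference of CD8+ minus that of CD11b+ cDC was positive after CpG for 4 of 7 (5.24% of all genes passed and 2.46% were positive), namely Gimap3, Gimap6, Gimap7 and Gimap8. With the replicate number as a fixed block, which pairs the subsets after CpG in both strains, 6 of 7 passed, all but Gimap1, and with a random block 4 of 7 passed. With no filter and no block 5 of 8 passed (2.77% of all genes passed and 1.32% were positive), with Gimap5 (1.38 ± 0.27) the one added. Under PBS limma called 0 of 7, with 1 at an unadjusted p under 0.05, Gimap6 at 1.44 ± 0.66 (adjusted p = 0.715), where 0.871% of all genes passed.

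NK cell markers were highest in the group where the family was highest. Some also differed where no member passed, with smaller medians over the list. In CpG-injected B6 CD11b+ cDC the mean of 11 NK cell markers was 9.75, 10.52 and 9.49, against 6.59, 7.21 and 6.43 in PBS-injected B6 CD11b+ cDC. The centred family mean was 1.47, 2.49 and 1.14 after CpG, in the same order over the arrays, and -0.58, -0.17 and -0.44 after PBS. After CpG the array labelled 2 was highest for both the markers and every Gimap gene. Of the 11, 10 rose and 1 fell, with a median log2 difference of 3.57 (38.6% of all genes passed and 15.7% rose). Gzmb, a granule protease of cytotoxic cells, rose most (6.50 ± 0.29), followed by Nkg7 (4.10 ± 0.29), Prf1 (3.94 ± 0.22) and Il2rb (3.82 ± 0.31). The NK receptor gene Ncr1, which is close to specific to NK cells and related innate lymphocytes, averaged 9.91 after CpG against 6.35 after PBS (3.57 ± 0.27), and Klrb1c averaged 8.18 against 4.75 (3.42 ± 0.28). Klrd1, the marker with the highest mean over the 24 arrays (9.55), was the one that fell (-0.63 ± 0.24, adjusted p = 0.0373). In NOD CD11b+ cDC, where no Gimap member passed, the mean of the list was 6.69, 6.83 and 6.96 after CpG against 5.47, 5.47 and 5.67 after PBS. Of the 11, 6 were higher, with a median of 0.86 (15.3% of all genes passed). In B6 CD8+ cDC after CpG, again with no member passing, 4 of the 11 rose and 1 fell (57.2% of all genes passed). In NOD CD8+ cDC 3 rose and 1 fell (40.3%). Under PBS, where no member passed either, 5 of the 11 were lower in NOD than in B6 CD11b+ cDC (5.55% of all genes passed). In B6 under PBS 5 were lower in CD8+ than in CD11b+ cDC (21.6%). Over all 24 arrays the list's mean was at most 7.21 outside CpG-injected B6 CD11b+ cDC. The part of NK cells in the Gimap differences was not tested.

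T and B cell markers were counted in B6 CD11b+ cDC after CpG against PBS. There 1786 of the 11365 genes tested (15.7%) rose and 2597 fell. Of 7 tested T cell markers, 2 rose in B6 CD11b+ cDC after CpG, Thy1 (3.11 ± 0.25) and Cd28 (1.86 ± 0.25), and Cd5 fell (-1.0 ± 0.14). The genes of the T cell receptor complex did not pass: Cd3e averaged 5.88 after CpG against 5.89 after PBS (-0.02 ± 0.17), and Cd3d (0.31 ± 0.20) and Cd3g (0.31 ± 0.29) were below the array median on all 6 arrays. The list's mean was 6.39, 6.67 and 6.32 after CpG, against 5.85, 5.99 and 5.87 after PBS. Of 7 B cell markers, 0 rose and 1, Fcer2a, fell (-1.19 ± 0.29), with a median of -0.50. Their mean ran from 5.68 to 6.28 after CpG, against 6.41 to 7.05 after PBS. The CD11b+ cDC markers moved as well: 5 of 7 fell and 1 rose in B6 CD11b+ cDC after CpG, with Itgam, which encodes CD11b itself, at -1.99 ± 0.24, and their mean was 7.74 to 8.04 after CpG against 8.91 to 8.99 after PBS. Of 8 CD8+ cDC markers, 2 rose and 4 fell, and Cd8a was among those that rose (1.42 ± 0.26). Of the remaining lists, 3 of 4 pan-cDC markers fell, 2 of 6 plasmacytoid cell markers rose, 1 of 8 red pulp macrophage markers rose and 3 fell, and 2 of 4 tested neutrophil markers rose.

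**Figure D3:**
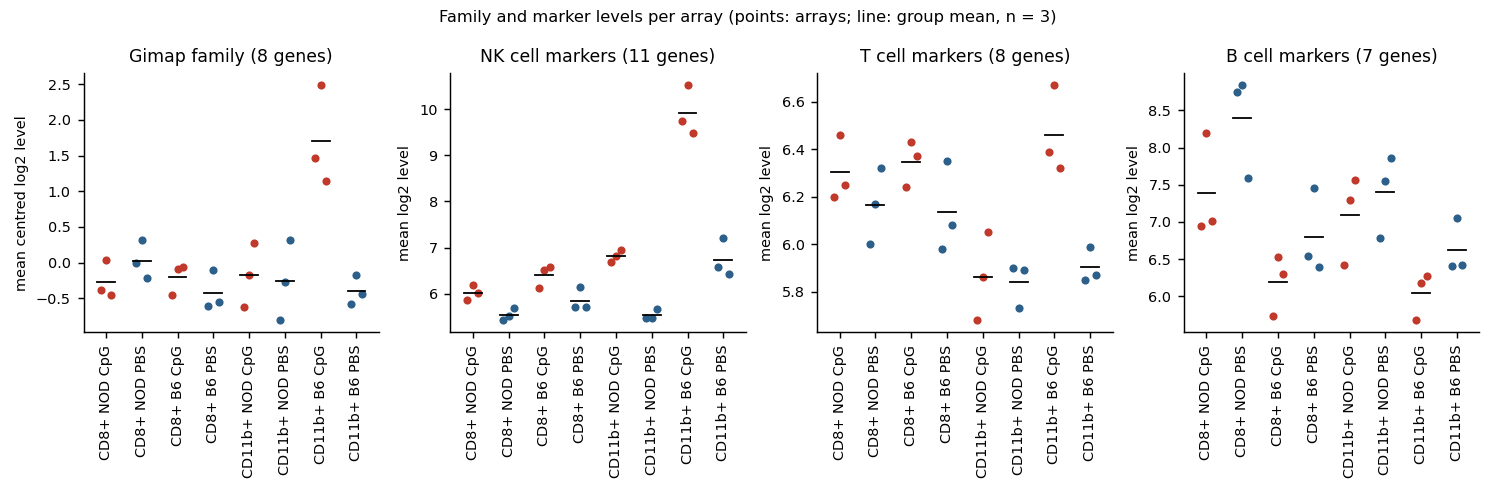
Mean log2 level per array (vertical axis, a separate scale for each panel) of the Gimap family, centred on each gene's 24-array mean, and of the NK, T and B cell marker lists in the 8 groups (horizontal axis); red points are CpG and blue points PBS arrays, and lines are means of 3 arrays. The family and the NK cell markers are both highest in CpG-injected B6 CD11b+ cDC, the NK cell list between 9.49 and 10.52, and B cell markers are highest on average in PBS-injected NOD CD8+ cDC.

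The genes whose pattern was most like the family's were found over the 24 arrays. Likeness was the Pearson correlation with the mean of the 7 tested members, over 11358 other tested genes, on arrays that share the 8 groups. The 5 highest were Ptprcap (0.921), which encodes a partner of CD45, Sh2d2a (0.907), an adaptor of T and NK cells, Prkcq (0.906), the protein kinase C of T cell activation, F2r (0.901), a thrombin receptor, and Itga2 (0.899), an integrin used to mark NK cells. The 2 lowest were Cbfa2t3 (-0.79), a transcriptional co-repressor, and Gm10612 (-0.78). These values rest mostly on 1 group: without the 3 arrays of CpG-injected B6 CD11b+ cDC, Ptprcap correlated at 0.725 and the other 4 between 0.21 and 0.28. Over those 21 arrays the most alike were Fcmr (0.857), Pax5 (0.833) and Ablim1 (0.825), the first a receptor for IgM and the second the transcription factor of B cell identity, a list chosen after its values were seen.

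The members also resembled each other, first with the group means left in and then after these were subtracted. For each tested member, the 6 others were ranked among all tested genes by their correlation with it over the 24 arrays, and the worst of these ranks was 72 of 11365, in the order of Gimap3. Gimap3 and Gimap7 were the closest pair (0.922). After the group means were subtracted, the 28 pairs of members correlated between 0.55 and 0.87 over the 24 arrays (median 0.69), and between 0.29 and 0.86 over the 21 arrays outside CpG-injected B6 CD11b+ cDC (median 0.60). Arrays share input and amplification over all probe sets, and close copies may share probes, so these are descriptions. Whether other gene pairs correlate as much after the subtraction was not tested.

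The genes beside the cluster differed little between CpG and PBS in B6 CD11b+ cDC. The 5 nearest measured genes on either side, Rarres2, Gm5111, Repin1, Zfp775 and AI854703 before Gimap8 and Tmem176b, Tmem176a, Gm7932, Aoc1 and Doxl1 after Gimap3, differed between -0.04 and 0.39 there with no filter, and 1 of the 10 passed. That one was Repin1, a zinc finger gene (0.39 ± 0.13, adjusted p = 0.0177 with the filter). Of the neighbours only Repin1, Tmem176b, Tmem176a and Gm7932 passed the filter. The small differences of the others lie in the low part of the scale, where a change may not be seen. Tmem176a and Tmem176b, overlapping genes of membrane proteins that dendritic cells express, followed another pattern. They rose in NOD CD8+ cDC (0.84 ± 0.16 and 0.49 ± 0.14), in B6 CD8+ cDC (0.77 ± 0.16 and 0.57 ± 0.14) and in NOD CD11b+ cDC (0.71 ± 0.16 and 0.52 ± 0.14), where no Gimap member passed, and did not pass in B6 CD11b+ cDC (0.16 ± 0.16 and 0.14 ± 0.14).

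**Figure D4:**
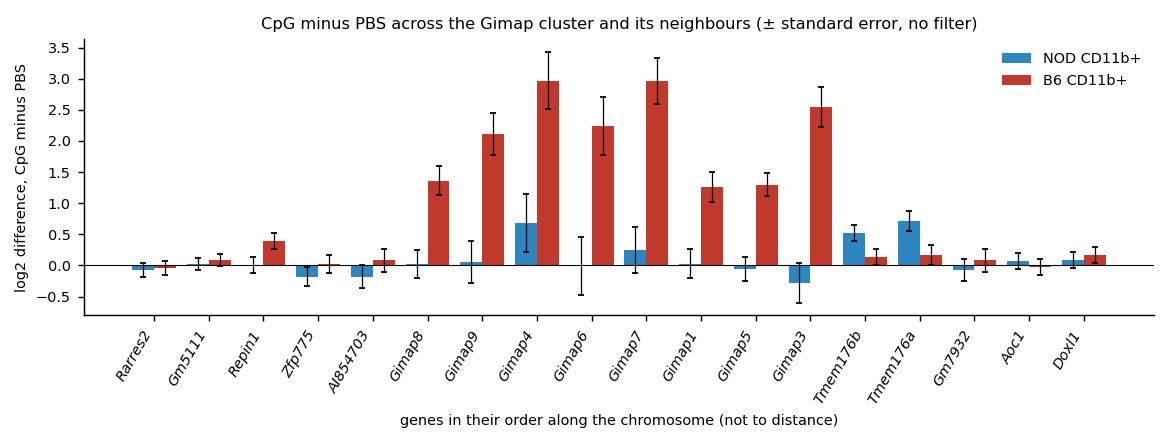
Log2 difference of CpG minus PBS (vertical axis) with its standard error, from the fit with no filter, for the 8 Gimap genes and the 5 nearest measured genes on either side in chromosomal order (horizontal axis, not to distance), in NOD (blue) and B6 (red) CD11b+ cDC. The red bars of the Gimap genes lie between 1.26 and 2.97, and those of the 10 neighbours between -0.04 and 0.39. Gimap5 and all neighbours but Repin1, Tmem176b, Tmem176a and Gm7932 did not pass the filter on low values.

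Lists of genes known to work with the family or beside it were counted in B6 CD11b+ cDC after CpG, where 38.6% of all genes passed. Of 7 BCL-2 family genes, 4 rose and 1 fell: Bcl2l11, which encodes the death-promoting BIM, by 2.61 ± 0.16, the survival genes Bcl2l1 and Bcl2 by 1.12 ± 0.16 and 1.09 ± 0.24, and Bak1 by 0.36 ± 0.11, while Mcl1 differed by 0.17 ± 0.08 and did not pass (adjusted p = 0.086). Of 11 genes of the ATG8 conjugation machinery of autophagy, 2 rose and 2 fell, with Gabarap at 0.40 ± 0.07, Atg12 at 0.27 ± 0.10, Atg5 at -0.41 ± 0.13 and Atg7 at -0.45 ± 0.12. Of 12 tested genes of lymphocyte quiescence, the resting state of naive cells, 2 rose and 3 fell (median -0.23). The shares of the autophagy and quiescence lists that passed lie near that of all genes. The interleukin 7 receptor gene Il7r (1.40 ± 0.24) and Slfn2 (1.03 ± 0.10) rose, and Btg2 (-0.88 ± 0.15) and Tob1 (-0.84 ± 0.16) fell.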

How the data were processed

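Each array's values were deposited on a log2 scale. The submitters' processing notes name RMA and Partek, without versions. Total RNA (5 ng) was amplified, and cDNA (2.5 ug) was fragmented and labelled, per the labels' protocols. The array model is unsettled, since the labels' model is not the gene array whose annotation the probe sets match. Of 35556 probe sets, 21789 had 1 gene symbol, 1621 had several and 12146 were not listed. Where a gene had several, the one of highest mean was taken. Group means were fitted with limma 3.58.1 in R 4.3.3 (statmod 1.5.0; the package data.table, release 1.17.8), with 16 residual degrees of freedom and a variance trend. Two-sided tests were made of 18 contrasts. The same fit was also run on simulated data for CpG in B6 CD11b+ cDC only, and that outcome is not given here. The number of arrays limits the precision.

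The members, lists and rules were chosen with earlier results of these data known. By rule were named the members, the 5 nearest measured genes on either side, up to 4 called and 2 uncalled genes per list (for T, NK and B cells also the 3 highest and the low ones), the 5 most and 2 least alike genes, and Ifit1. Same-numbered arrays deviated together (every correlation over 0.1) between subsets (0.103 to 0.446) and between strains in CD8+ cDC (0.197 to 0.546). They also did so between CpG and PBS in NOD (0.153 to 0.336), not in the others. Numbers are said to pair arrays in this sense only, and the labels do not say what a number marks. Alternatives changed the filter, normalization, probe set rule, variance model, arrays fitted, replicate block and each array left out.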

Additional observations from a re-analysis of the deposited data

Results flagged for a closer look

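The CpG response (CpG minus PBS) differed between groups, by the interaction terms of the limma fit, for 7 members. Between strains in CD11b+ cDC, NOD minus B6, the difference was -2.83 for Gimap3 (adjusted p = 0.000688), -2.73 for Gimap7 (0.00421 adjusted p), -2.05 for Gimap9 (adjusted p = 0.0183), -1.34 for Gimap8 (adjusted p = 0.021) and -1.24 for Gimap1 (adjusted p = 0.0444, and 0.0581 with no filter on low values, which does not pass). Between subsets in B6, CD8+ minus CD11b+ cDC, it was -2.42 for Gimap7 (adjusted p = 0.00393), -2.41 for Gimap3 (adjusted p = 0.00111), -2.21 for Gimap9 (adjusted p = 0.00425), -2.19 for Gimap4 (adjusted p = 0.0336), -2.03 for Gimap6 (adjusted p = 0.0455, and 0.0617 with no filter, which does not pass), -1.33 for Gimap8 (adjusted p = 0.00925) and -1.12 for Gimap1 (adjusted p = 0.0352). The strain difference after CpG, NOD minus B6, also differed between subsets, CD8+ minus CD11b+ cDC, by 2.59 for Gimap6 (adjusted p = 0.0217), 2.51 for Gimap7 (adjusted p = 0.00596), 2.27 for Gimap3 (adjusted p = 0.00383) and 1.38 for Gimap8 (adjusted p = 0.0145). All of these terms contain the same 3 arrays of CpG-injected B6 CD11b+ cDC, in which NK cell markers were also high.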

How the results depend on the processing

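The 7 tested members kept their rise after CpG in B6 CD11b+ cDC under every alternative in which they were tested. No difference that passed in either fit changed sign. Among differences that passed in neither, 90 changed sign, 66 of them with 1 array left out and 20 with array weights. The filter asking for 12 of the 24 arrays left 3 members to test, and the counts passing became 3 for CpG in B6 CD11b+ cDC, 3 for NOD minus B6 after CpG in CD11b+ cDC, 3 for the subsets after CpG in B6, 3 for the subsets' responses in B6, 1 for the strains' responses in CD11b+ cDC and 1 for the subsets' strain difference after CpG. With only the groups compared in the fit, 1 member passed for CpG in B6 CD8+ cDC, 1 for CpG in NOD CD8+ cDC, 1 for the strains in CD8+ cDC under PBS, 1 for the subsets in NOD under PBS and 2 for the subsets' strain difference after CpG. With array weights 2 passed for CpG in NOD CD8+ cDC, 1 each for the strains in CD8+ cDC after CpG, the strains in CD11b+ cDC under PBS and the subsets in NOD after CpG, and 7 for the subsets' strain difference after CpG; the cause was not tested. With the replicate number as a fixed block 1 passed for the strains in CD8+ cDC under PBS, 1 for the strains in CD11b+ cDC under PBS, where the numbers do not pair the arrays, and 1 for the subsets in NOD under PBS, as with a random block (1). Either block raised the strains' responses in CD11b+ cDC to 7 of 7. In CD11b+ cDC the numbers pair CpG with PBS arrays only in NOD, and do not pair the strains under either injection. The fixed block raised the subsets' strain difference after CpG to 6, and no other count changed under a replicate block. With 1 array left out at a time, the counts ran from 7 to 7 for CpG in B6 CD11b+ cDC, 5 to 7 for the strains after CpG in CD11b+ cDC, 2 to 7 for the strains' responses in CD11b+ cDC, 4 to 7 for the subsets' responses in B6, 3 to 5 for the subsets' strain difference after CpG, 0 to 1 for the strains in CD11b+ cDC under PBS (1 without the array labelled 1 of PBS-injected NOD) and 0 to 1 for the subsets in NOD under PBS (1 without the array labelled 3 of either subset). Of the results for single members, 2358 kept their side of the threshold, 37 newly passed and 53 no longer did. Low signal limits all members but Gimap4 and Gimap6, which alone lay above the array median on every array of PBS-injected B6 CD11b+ cDC.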
